A study of Mus musculus with 84 samples.

Results

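H3K27ac, the acetylation of lysine on the tail of histone H3 that marks active promoters and enhancers, was compared between epididymal adipocyte nuclei of H mice, fed a high-fat diet for 12 weeks, and of C mice, fed chow. Both groups were 18 weeks old. The comparison used 6 of the 84 libraries in the series, 3 per group, chosen by title (H_short and C_short with H3K27ac). CUT&Tag, where a transposase tethered to an antibody cuts and tags the DNA beside a mark, was run on nuclei of AdipoERCre x NuTRAP mice. The labels give the strain as C576BL6 background. In these mice tamoxifen, which H and C mice both received before the diets, switches on a biotin label of the nuclei through a Cre driven by the adiponectin promoter, and the labelled nuclei were then captured on beads. Buffers of the nuclei preparation contained sodium butyrate, an inhibitor of histone deacetylases. For later comparison, 15 more H3K27ac libraries came from the same kind of mice: HC and its chow control CC_s (26 weeks of age, HC after 12 weeks of high-fat diet and 8 weeks of chow), HH and CC_l (31 weeks, HH after 25 weeks of high-fat diet), and HHC and CCC (39 weeks, HHC after 25 weeks of high-fat diet and 8 weeks of chow). HC, HH and HHC held 3 libraries each, and CC_s, CC_l and CCC 2 each.

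White adipocytes store triglyceride, partly made by de novo lipogenesis from glucose, release it by lipolysis, and secrete adipokines such as leptin and adiponectin. PPARγ and the C/EBP factors drive this programme from promoters and many distal enhancers. Enhancers carry H3K4me1 whether active or not, active promoters carry H3K4me3, and H3K27me3 marks regions silenced by polycomb proteins. In obesity the epididymal depot is known to take up many macrophages.

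The sites were the promoters of 21851 protein-coding genes, each taken as the 2000 bp up- and downstream of its transcription start sites (TSS), and the 26871 merged H3K27ac regions of the 6 libraries that touched no such window. An overlap of 1 bp with a peak made a site marked in that library. Gained meant marked in 3 of 3 H and 0 of 3 C libraries, and lost the reverse. Since the authors' peak caller kept the top share of signal blocks of each library, a site without a peak fell below that library's cut and was not shown to lack the mark. The study states a minimum read number but no depth per library, which is therefore unknown here. Libraries are labelled as biological replicates, and the precision rests on their number.

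Acetylated domains were narrower in every H library than in any C library, while peak numbers overlapped. C libraries had 21627, 22673 and 25076 peaks and H libraries 26649, 18227 and 12174 (mean log2 difference −0.35, exact permutation test, two-sided, p = 0.4). Median peak width was 1765, 1648 and 1372 bp in C and 801, 477 and 700 bp in H, with no overlap between the groups. The bases under peaks came to 46.4 ± 3.22 Mb in C and 14.6 ± 8.54 Mb in H (SD, n = 3). With 3 libraries against 3 the exact test cannot go below 0.1, which width, covered bases and the share of peaks at promoters (35.6% ± 1.79 in C, 38.1%, 43.5% and 38.5% in the H libraries) all reached (adjusted p = 0.133 over 4 exact tests). With 500 bp in place of 2000 bp around each TSS that difference in share came to 0.152 percentage points, from 4.48. Among the older animals, HC peaks had median widths of 672 to 906 bp against 1232 and 1494 bp in CC_s, whereas HH peaks (1613 to 2132 bp) surrounded those of CC_l (1868 and 1893 bp). The diet difference in width in H against C minus that in HH against CC_l came to −1.32 log2 units (exact permutation test, p = 0.05, adjusted p = 0.13).

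**Figure D1:**
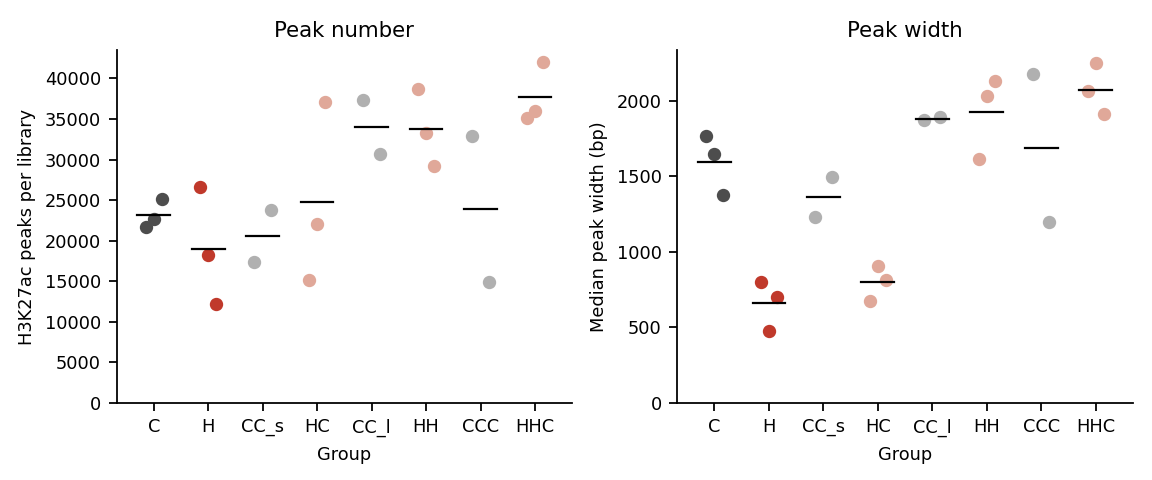
H3K27ac peaks per library (left) and median peak width in bp (right) in the 8 groups, each point a library and each bar a group mean. The 3 H libraries have medians of 477 to 801 bp, below all 3 C libraries (1372 to 1765 bp), while peak numbers overlap.

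Adipocyte markers were present in every library, and macrophage markers separated the H libraries from each other. Of 25 adipocyte identity and adipokine promoters, the C libraries marked 23, 22 and 22 and the H libraries 20, 17 and 19. Over all promoters these counts were 8018, 8506 and 7996 in C and 8541, 6599 and 4538 in H, and H replicate 3 marked the fewest. Adipoq (adiponectin), Pparg, Lep (leptin), Cebpa and Plin1 (perilipin, on the lipid droplet) were marked in 6 of 6 libraries, and Ucp1, the uncoupling protein of brown fat, in 0 of 6. Of 27 macrophage and pan-leukocyte marker promoters, each C library marked 3 (Cd68, Fcer1g and Cd14), whereas H replicates 1, 2 and 3 marked 14, 13 and 0. With equal peak numbers these counts were 3, 3 and 2 in C and 7, 8 and 0 in H. Of the 27, 24 were at 0 in all C libraries and 10 in all 6 libraries. Tyrobp, a signalling adaptor of myeloid cells, was marked in H replicates 1 and 2 only, Lyz2 (lysozyme) in H replicate 1 only, and Icam1, an adhesion molecule for leukocytes, in H replicate 2 only. Of 14 endothelial markers, 1 was marked in each C library and 6, 3 and 0 in H. With equal peak numbers these counts were 0, 1 and 0 in C and 2, 1 and 0 in H. Epididymal epithelium markers (10) stayed at 0 in all 6. Lymphocyte markers (15) reached 0 to 1 in C and 0 to 2 in H, mesothelial markers (12) 0 to 1 in both, progenitor and fibroblast markers (13) 3 in each C library and 0 to 4 in H, and mural markers (10) 2 to 4 in C and 2 to 3 in H.

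H replicate 3 had the fewest peaks and no macrophage marker, and no macrophage promoter was called gained with it. Without it the rule for gained asks for fewer libraries, and 7 of the 27 macrophage and 2 of the 14 endothelial promoters met it. So did 3 of the 27 interferon and antigen presentation promoters, beside 316 of all 21851 promoters. In the older animals the macrophage list stood at 11 to 20 marked promoters in HH against 5 and 5 in CC_l, at 12 to 24 in HHC against 2 and 9 in CCC, and at 0 to 19 in HC against 2 and 3 in CC_s. With equal peak numbers HH stood at 12, 6 and 4 against 3 and 3. HHC then stood at 16, 2 and 9 against 3 and 2, and HC at 0, 0 and 7 against 1 and 3, both with overlap. A mark on a smaller share of nuclei and a weaker mark in every nucleus cannot be told apart in these libraries, and the part of other cell types in the differences below was not tested.

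**Figure D2:**
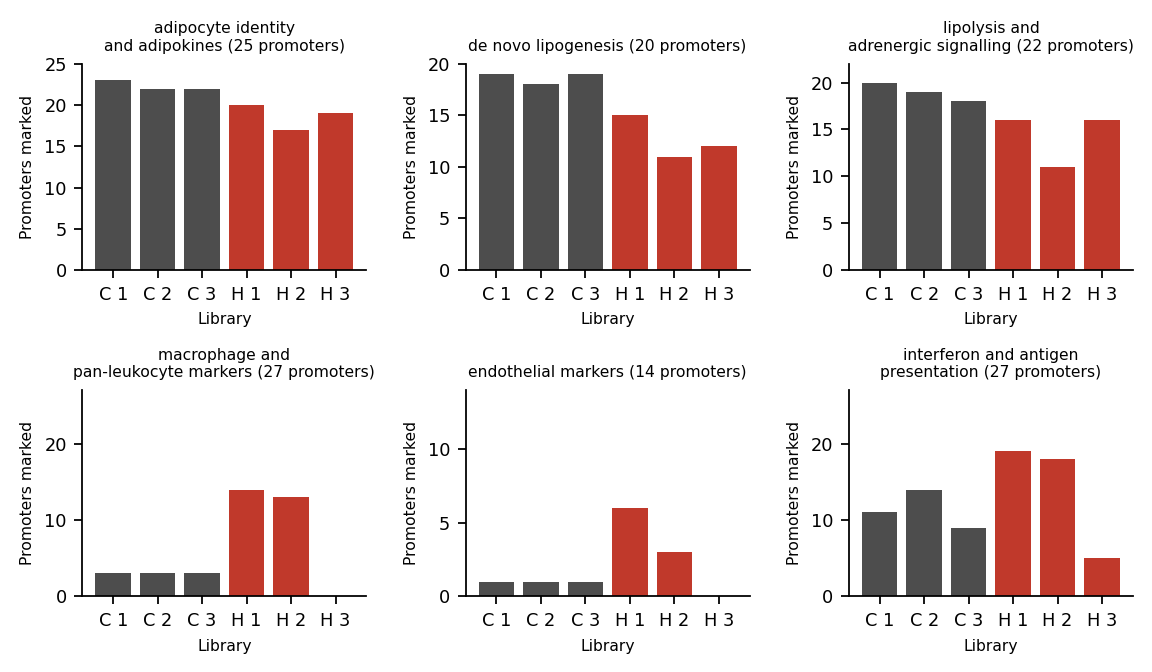
Number of promoters with an H3K27ac peak in each of the 6 libraries (C grey, H red) for 6 gene lists, with the y axis ending at the list size. Lipogenic promoters stand at 18 or 19 in C and 11 to 15 in H, and macrophage promoters at 3 in each C library, 14 and 13 in H replicates 1 and 2 and 0 in H replicate 3.

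With all peaks, loss of promoter acetylation was more common than gain, and with equal peak numbers the counts were close. Of 10726 promoters marked in at least 1 of the 6 libraries, 423 (3.94%) were lost and 32 (0.298%) gained, and 3433 were marked in 6 of 6. When the 12174 peaks with the highest total signal, the number in H replicate 3, were kept in every library, 231 of 8416 promoters were lost (2.74%) and 188 gained (2.23%), so that gains made up 44.9% of the calls in place of 7.03%. Both settings shared 112 lost promoters (26.5% of the 423 and 48.5% of the 231) and 18 gained (56.3% of the 32 and 9.57% of the 188). With a library left out the rule asks for fewer libraries, so counts can only stay the same or rise. Without H replicate 3 there were 316 gains and 521 losses, and without H replicate 1 there were 36 gains and 1183 losses. Without C replicate 2 or 3 gains were 54 and 64.

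The promoters lost under both settings were ordered by their median signal in C, so those at the head were by this choice strongly acetylated in chow-fed mice. Signal at each site is given as the percentile of its summed peak signal among the marked promoters of that library. Chst1 (chr2:92599707-92615250), a sulfotransferase for keratan sulfate, stood at percentiles 99.7, 99.8 and 95.4 in C, and no H library had a peak at its promoter. Cyp2e1 (chr7:140763739-140774987), a cytochrome P450 that oxidises ethanol and small ketones, stood at 97.7, 97.7 and 96.0 in C and had no peak in H. Acaca (chr11:84129672-84401651), the acetyl-CoA carboxylase of the cytosol that commits carbon to fatty acid synthesis, stood at 98.1, 90.8 and 96.9 in C, again with no peak in H. In each C library these sites were thus at percentile 90.8 or above. Gene positions are those of whole genes in GENCODE on GRCm38, whereas peaks and percentiles refer to the promoter windows.

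The other 9 lost promoters at the head of that order, all marked in 3 of 3 C libraries and no H library, had median percentiles in C between 93.3 and 97.6. Cfd, the complement factor adipsin secreted by adipocytes, stood at 95.4, 95.9 and 87.5. Serpina1c and Serpina1d encode secreted protease inhibitors of the α1-antitrypsin family, and Serpina1a, Serpina1b and Serpina12 (vaspin) were lost as well. The Serpina1 genes are near-identical copies, so reads could not be assigned to them with certainty. Rbm38 encodes an RNA-binding protein, Mb myoglobin, Cd27 a receptor of the TNF family, Adra1d an α1-adrenergic receptor, Gde1 a glycerophosphodiester phosphodiesterase and Asns asparagine synthetase. Adra1d and Asns were less even, at 44.2 and 55.8 in C replicate 3 against 93.3 or more in the other C libraries.

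Gained promoters were ordered by their median signal in H. Ccn1 (chr3:145646976-145649981), a matricellular protein that binds integrins, had no peak in C and stood at percentiles 95.4, 77.1 and 0.8 in H, so its place in H replicate 3 was near the bottom. The histone genes Hist1h2ag, Hist1h2bj and Hist1h4i share a window, in which the peak of Hist1h2ag stood at 82.6, 63.5 and 37.0 in H. Pdzd7 and Sfxn3, a mitochondrial serine transporter, share a window and stood at 54.7, 83.7 and 60.4. Sh3tc2 stood at 77.9, 59.2 and 54.5. The remaining gained promoters at the head of the order were those of Pip5k1c, a lipid kinase, with Tjp3, of Galns, a lysosomal sulfatase, with Trappc2l, and of Slc12a8, with medians in H of 56.2, 52.5 and 52.3. Of the gained genes, Dynlt1a and Dynlt1f are near-identical copies of a dynein light chain, which leaves their reads uncertain.

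**Figure D3:**
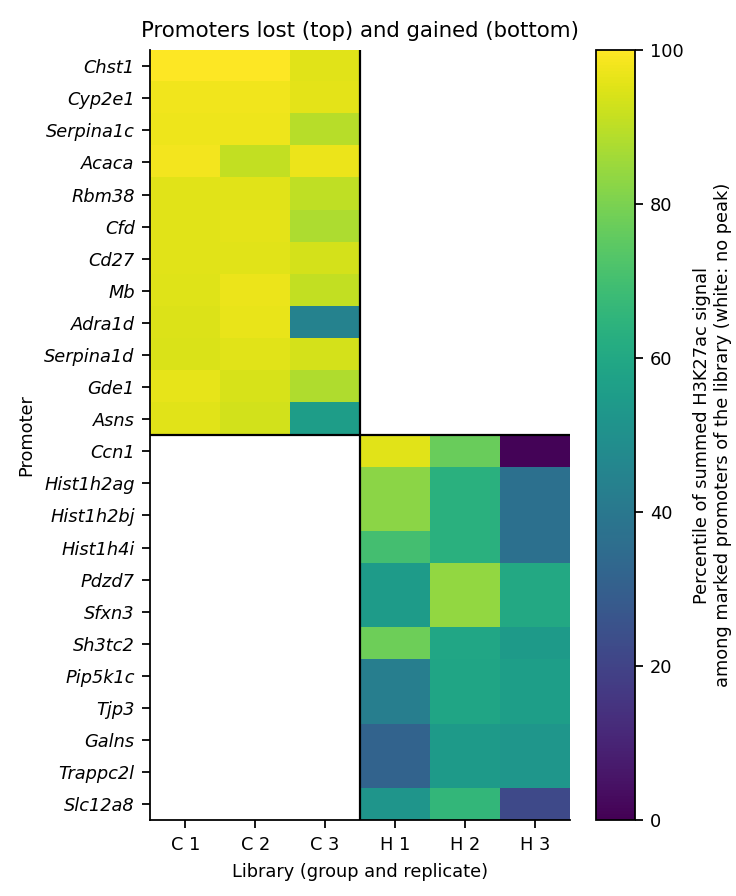
Percentile of summed H3K27ac signal among the marked promoters of each library (colour, white for no peak) for the 12 lost and 12 gained promoters named by rule, in 3 C and 3 H libraries. Lost promoters lie mostly above 90 in C, and gained ones are spread from 0.8 to 95.4 in H.

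The promoter sequences of Cyp2e1 and Cfd, lost, and of Ccn1, gained, show how the sites differ in base composition. They are RefSeq sequences of build GRCm38.p6, written 5′ to 3′ on the gene's strand, and capitals mark matches of the motifs given further on.
Cyp2e1 promoter (chr7:140763569-140763868, plus strand): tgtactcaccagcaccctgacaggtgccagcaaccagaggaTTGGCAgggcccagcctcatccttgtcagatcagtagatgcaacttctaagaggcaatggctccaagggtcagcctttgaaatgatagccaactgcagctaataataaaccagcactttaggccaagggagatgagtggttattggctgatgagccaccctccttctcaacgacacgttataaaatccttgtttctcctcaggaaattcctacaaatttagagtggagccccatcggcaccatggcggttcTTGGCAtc
Cfd promoter (chr10:79890603-79890902, plus strand): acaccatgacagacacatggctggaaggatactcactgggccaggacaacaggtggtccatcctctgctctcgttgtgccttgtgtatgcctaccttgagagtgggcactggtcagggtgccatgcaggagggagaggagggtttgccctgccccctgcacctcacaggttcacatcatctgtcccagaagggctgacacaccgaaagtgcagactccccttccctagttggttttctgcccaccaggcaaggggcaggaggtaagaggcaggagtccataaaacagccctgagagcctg
Ccn1 promoter (chr3:145649936-145650235, minus strand): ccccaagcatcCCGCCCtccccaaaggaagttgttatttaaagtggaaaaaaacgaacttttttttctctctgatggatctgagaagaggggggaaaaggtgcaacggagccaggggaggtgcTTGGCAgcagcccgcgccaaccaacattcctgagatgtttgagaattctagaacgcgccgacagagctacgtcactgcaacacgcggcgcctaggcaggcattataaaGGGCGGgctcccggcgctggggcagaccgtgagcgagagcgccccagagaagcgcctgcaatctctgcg
The Cyp2e1 and Cfd windows hold 4 and 2 CpG and no GC box, whereas the Ccn1 window holds 20 CpG and 2 GC boxes. Across the sets, the median number of CpG per 300 bases was 22 for the promoters marked in any library (8414 of 10716 gene symbols matched), 20 for those lost (318 of 423 matched), 12 for those lost under both settings (80 of 112 matched) and 23 for those gained (23 of 32 matched). A GC box was present in 68.8% of all promoters marked, in 57.5% of those lost, in 51.3% of those lost under both settings and in 78.3% of those gained.

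Read by gene list, losses were few, and Ccn1 was the only list member gained with all peaks. Counts over the lists are descriptions. In de novo lipogenesis 3 of the 19 marked promoters were lost (15.8%, beside 3.94% of all), namely Acaca, Elovl6 and Me1. Elovl6, which elongates palmitate, stood at 39.4, 65.7 and 62.6 in C and was lost with equal peak numbers too. Me1, the cytosolic malic enzyme that yields NADPH, stood at 60.4, 11 and 76.5, and it was not lost with equal peak numbers. In adipocyte identity and adipokines 2 of 23 were lost, Cfd and Rbp4, the retinol-binding protein that acts as an adipokine, which stood at 57.9, 74.1 and 76.3 in C. Hcar2, the anti-lipolytic receptor for hydroxybutyrate, was the 1 of 20 lost in lipolysis and adrenergic signalling, and Cox8b, a subunit of cytochrome c oxidase, the 1 of 9 among thermogenic genes.

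In the list of extracellular matrix and remodelling 4 of 33 marked promoters were lost (Col3a1, Lox, Mmp19 and Tnc) and 1 was gained (Ccn1). Lox and Tnc were not lost with equal peak numbers. Col3a1, a fibrillar collagen chain, stood at 92.1, 64.2 and 90.8 in C. Of inflammatory lists, 2 of 26 marked cytokine, chemokine and NF-kB promoters were lost (Cxcl10 and Lcn2), 1 of 23 interferon and antigen presentation promoters (Gbp3) and 1 of 27 lysosomal promoters (Lamp2), all 4 of them lost only with all peaks. The lists of adipogenic transcription factors (24 marked), triglyceride synthesis (15), fatty acid oxidation (26), insulin signalling and glucose uptake (23), cytoskeleton (28), hypoxia and glycolysis (19) and AP-1 (19) had no promoter gained or lost with all peaks. With equal peak numbers, Aacs, Ppara, Timp3, Tead1 and Cspg4 were also lost, and Tgfbr1 and Acta2 also gained. Gpam, which adds the first acyl chain in triglyceride synthesis, stood at 99.1, 98.2 and 98.7 in C and at 87.0 and 71.1 in H replicates 1 and 3, with no peak in H replicate 2, so it was not called.

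A site can keep its peak and still lose signal, so the level of acetylation was compared at the 3433 promoters marked in 6 of 6 libraries. Summed peak signal was quantile-normalized on the log2 scale and tested with limma, with Benjamini-Hochberg adjustment at 0.05. Of these promoters 62 (1.81%) were lower and 18 (0.524%) higher in H, beside a median difference of 0.06 over all 3433. In all 80 the values of the groups did not overlap, which the call itself favours. The share without overlap over all 3433 was not counted. The counts depended on single libraries: without C replicate 1, 2 or 3 no promoter was higher (178, 186 and 251 at an unadjusted p under 0.05) and 8, 8 and 23 were lower, without H replicate 1 the test called 5 higher and 49 lower, and without H replicate 3 it called 66 higher and 164 lower. Since only promoters with a peak in every H library enter, the 423 lost promoters were not part of this test. The 6 libraries were unequal in likeness, with correlations across promoters of 0.843 to 0.885 between C libraries and 0.528 to 0.678 between H libraries.

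Promoters with lower levels included some of genes that make and store fat, those of the homeobox genes Hoxc5 and Hoxc6, and others of varied function. Mgst3, a membrane glutathione transferase, stood at percentiles 97.6, 98.9 and 99.4 among the promoters tested in C and at 22.1, 38 and 31.3 in H, a difference of −2.94 ± 0.29 (SE, log2, limma adjusted p = 0.00205). Acvr1c, the receptor ALK7 of activin signalling in adipocytes, went from 97.9, 93.4 and 92.2 to 1.1, 13 and 7.8 (−2.92 ± 0.32, limma adjusted p = 0.00316). Acly, ATP citrate lyase, which supplies cytosolic acetyl-CoA, went from 83.7, 83.9 and 80.5 to 8.0, 17.9 and 5.8 (−1.92 ± 0.27, limma adjusted p = 0.00945). In each case every H library lay below every C library.

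Hoxc6 and Hoxc5, which overlap in the annotation, had differences of −3.39 ± 0.32 and −3.31 ± 0.44 (limma adjusted p = 0.00205 and 0.00824). Gpat3, a glycerol-phosphate acyltransferase of triglyceride synthesis, differed by −2.23, Rgcc, a regulator of the cell cycle, by −2.21, Akap1, an anchor for protein kinase A at mitochondria, by −2.28 and Setd1b, a histone methyltransferase of H3K4, by −1.90 (log2, limma adjusted p between 0.00534 and 0.00902). The unnamed gene model E030018B13Rik completed the 10 with the smallest p-values. Acacb, the acetyl-CoA carboxylase at mitochondria, stood at percentiles 99.7, 99.3 and 64.3 in C and at 6.6, 6.9 and 21.8 in H (−3.09 ± 0.62, limma adjusted p = 0.0343). Thrsp, a lipogenic nuclear protein, differed by −2.88 and Lep by −2.27 (limma adjusted p = 0.0125 and 0.0146). Lep had stood at 98.7, 99.1 and 96.3 in C and stood at 52.4, 25.2 and 75.1 in H.

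The promoter of Lep, lower in H, carries a C/EBP match, shown in capitals with a GC box.
Lep promoter (chr6:29059971-29060270, plus strand): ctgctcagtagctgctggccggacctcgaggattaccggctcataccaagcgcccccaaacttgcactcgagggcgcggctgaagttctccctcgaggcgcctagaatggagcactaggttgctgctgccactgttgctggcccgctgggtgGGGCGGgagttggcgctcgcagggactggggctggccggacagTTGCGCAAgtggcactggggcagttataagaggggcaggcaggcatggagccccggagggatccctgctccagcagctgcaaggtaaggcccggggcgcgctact

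Of the 18 promoters higher in H, 10 are named here. Junb, a subunit of the transcription factor AP-1, stood at percentiles 40.3, 49.1 and 4.0 in C and at 97.3, 99.3 and 85.8 in H, and it had the largest rise of the 18 (2.47 ± 0.47, limma adjusted p = 0.0321). Ing1, a reader of histone methylation, went from 42.9, 23.7 and 42.9 to 96.1, 90.7 and 90.9 (1.82 ± 0.29, limma adjusted p = 0.0147). Hspa8, a constitutive heat shock chaperone, rose by 1.34, the scaffold Iqgap1 by 1.66, the unconventional myosin Myo10 by 1.70, the transcription factor Rfx1 by 1.66, the kinase Taok3 by 1.53, Fam214b by 1.63, Adap2 by 1.36 and Dynlt1b, a dynein light chain with near-identical copies, by 1.82 (limma adjusted p between 0.0245 and 0.0321).
The Junb promoter holds 21 CpG and no match to any motif searched.
Junb promoter (chr8:84978699-84978998, minus strand): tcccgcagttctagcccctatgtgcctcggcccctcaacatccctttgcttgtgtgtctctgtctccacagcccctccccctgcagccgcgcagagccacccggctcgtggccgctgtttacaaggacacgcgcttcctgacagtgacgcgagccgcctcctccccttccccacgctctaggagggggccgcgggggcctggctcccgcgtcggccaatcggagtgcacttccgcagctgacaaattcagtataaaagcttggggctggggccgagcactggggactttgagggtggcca

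Read by list, most promoters of the adipocyte programmes had values below 0 and most AP-1 promoters values above 0, though few passed the test one by one. Of 17 adipocyte identity promoters tested, 15 had values below 0 with a median of −0.71, and 4 were lower (Lep, Cidec, Fabp4 and Pnpla2), with none higher. Cidec, a lipid droplet fusion protein, differed by −1.83, Fabp4, a fatty acid carrier, by −2.10 and Pnpla2, the triglyceride lipase ATGL, by −1.28 (limma adjusted p = 0.0140, 0.0245 and 0.0483). Adipoq (−0.64), Pparg (−0.36), Cebpa (−1.22) and Plin1 (−0.29) did not pass (limma adjusted p = 0.476, 0.680, 0.300 and 0.819). For Adipoq the highest coverage within the peak, in place of summed signal, gave −1.55 (limma adjusted p = 0.0362).

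All 12 adipogenic transcription factor promoters tested had values below 0 (median −1.18), and 2 were lower, Tle3, a corepressor (−1.50), and Nfib (−1.72), with limma adjusted p = 0.0396 and 0.0350. In de novo lipogenesis 6 of 7 lay below 0 (median −1.38), and Acacb, Thrsp and Acly were lower. Triglyceride synthesis had 9 of 11 below 0 (median −0.86) with Gpat3 lower. Lipolysis and adrenergic signalling had 7 of 9 below 0 (median −1.22) with Pnpla2 and Fabp4 lower, and insulin signalling 9 of 11 (median −0.78) with none lower. Over all promoters tested 45.6% lay below 0. The medians of these 6 lists stayed below 0 with median centring. With the replicate number as a block they cannot change, since each number occurs once in each group. With the highest coverage they were smaller, at −0.56 for adipocyte identity, −0.40 for adipogenic factors, −0.68 for de novo lipogenesis, −0.40 for triglyceride synthesis, −0.64 for lipolysis and −0.03 for insulin signalling, beside 0.02 over all promoters. Against the mean of C, H replicates 1, 2 and 3 gave medians of −0.92, −1.15 and −0.40 for adipocyte identity and of −1.43, −1.66 and −0.85 for de novo lipogenesis. The same values were −1.04, −1.32 and −0.91 for adipogenic factors, −1.18, −1.21 and −0.30 for lipolysis, −0.74, −0.89 and −0.30 for insulin signalling and −1.05, −1.72 and 0.01 for triglyceride synthesis. H replicate 3 was thus nearest to C in all 6 lists.

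Fatty acid oxidation stood near the level of all promoters, with 9 of 17 below 0, a median of −0.03 and 1 lower, Hadh, of mitochondrial β-oxidation (−1.35, limma adjusted p = 0.0321). In the clock list Cry2 (−2.21) and Per2 (−1.28), repressors of the clock, were lower (limma adjusted p = 0.0147 and 0.0411), whereas the median of the 10 tested was 0.03 and turned to −0.17 with median centring. Adamts5, a matrix protease, was lower (−1.78, limma adjusted p = 0.0250) among 8 matrix promoters with 5 below 0 (median −0.70). Of 12 AP-1 and immediate early promoters 11 lay above 0 (median 0.47), and Junb alone was higher. Lysosomal promoters had 9 of 11 above 0 (median 0.39) and cytoskeletal promoters 9 of 15 (median 0.38), with none passing the test. Without H replicate 3 the lysosomal median was 0.18, and the cytoskeletal one turned to −0.02. The cytokine list (9 tested, median 0.17) and the hypoxia list (12 tested, median 0.07) turned to −0.03 and −0.22 with median centring, and the interferon list (4 tested, median 0.14) turned to −0.10 with the highest coverage. None of these 3 lists had a promoter that passed. The thermogenic and mural lists each had 1 promoter tested (0.55 and −1.14), neither passing.

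**Figure D4:**
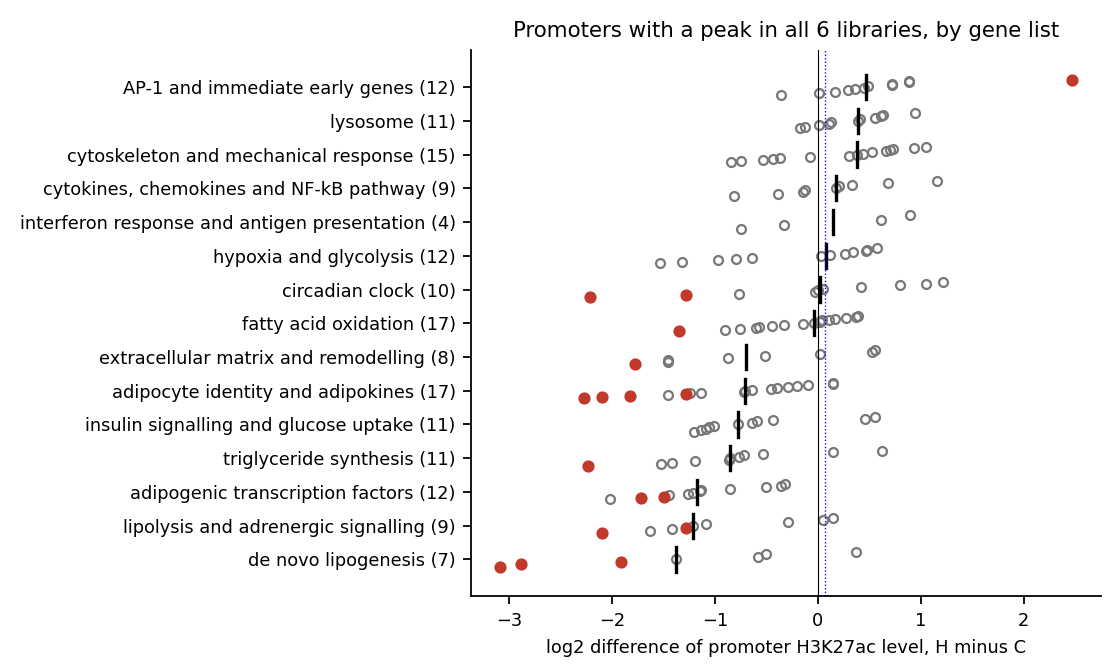
Difference in promoter H3K27ac level, H minus C on the log2 scale, for the members of 15 gene lists with a peak in all 6 libraries (number in brackets). Filled red points passed the limma test, black bars are list medians and the dotted line is the median of all 3433 promoters (0.06). Medians run from −1.38 in de novo lipogenesis to 0.47 in the AP-1 list.

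These differences were ordered by the width of the acetylated domain in C. Promoters called lower had a median summed peak width in C of 6486 bp and those called higher of 1542 bp, beside 2290 bp over all promoters tested. Among the 1144 promoters narrowest in C 11 were higher and none lower, and among the 1145 widest 3 were higher and 60 lower. Width was taken from the C libraries, and the level sums signal over the same peaks. The sets were thus not independent of the level test, and their order is a description. The highest coverage was also ordered by width, with a median difference of 0.11 in the narrowest and −0.15 in the widest of these sets. With it, 58 of the 62 lower promoters kept their sign (median −0.75) and 17 of the 18 higher ones (median 0.66), whereas the test then called 11 lower and 3 higher. On that scale Acvr1c (−1.42), Pnpla2 (−1.67), Junb (1.52) and Ing1 (1.48) passed (limma adjusted p = 0.0396, 0.0310, 0.0244 and 0.0310). Lep (−0.24), Acly (−0.09), Rgcc (−0.25), Mgst3 (−0.78), Acacb (−0.90) and Thrsp (−1.32) did not, and Akap1 turned to 0.51 and Adap2 to −0.09. The part of the narrower peaks of H in the level differences was not tested.

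Away from promoters, lost regions outnumbered gained ones under both settings. Of 26871 regions 2309 (8.59%) were lost and 72 (0.268%) gained. With equal peak numbers 800 of 13691 were lost (5.84%) and 125 gained (0.913%), of which 470 and 30 were shared with the calls on all peaks (20.4% and 41.7% of those calls, 58.8% and 24.0% of the calls with equal numbers). With a library left out, which loosens the rule, counts could only stay the same or rise. Without H replicate 3, 954 regions were gained and 2913 lost, and without H replicate 1 these were 114 and 3505. Without H replicate 2 or C replicate 3 gains were 185 and 147. Lost regions had a median width of 2129 bp, gained ones of 1014 bp and all regions of 1457 bp. Of the lost regions 44.4% lay in introns, 23.8% touched an exon and 31.8% were intergenic, beside 47.9%, 19.3% and 32.8% of all regions.

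The most acetylated region lost under both settings (chr11:35622485-35628788) overlapped an exon and lay 140696 bp from the TSS of Pank3, a pantothenate kinase of coenzyme A synthesis. It stood at percentiles 98.4, 98.4 and 56.7 among the marked regions of the C libraries. The next lay 94417 bp from Usp24 (98.6, 97.1 and 95.4), 6621 bp from Fam107a (96.2, 96.4 and 90.5) and 124669 bp from Bbox1, the last enzyme of carnitine synthesis (97.5, 95.2 and 95.0). Those near Pcsk6, Cpa1 and Sulf2, an extracellular sulfatase, had medians in C between 92.9 and 95.0. H3K4me1 was present in 3 of 3 C libraries at these 7, and in 3, 2 or 1 of 3 H libraries.

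The first gained region in the same order (chr4:86711828-86714130, intergenic) lay 34425 bp from Dennd4c, at percentiles 94.1, 97.6 and 9.3 in H. The second (chr1:171064068-171065578, exonic) lay 4665 bp from a TSS of Fcgr3, an Fc receptor of myeloid cells, at 86.9, 91.0 and 77.7. The Fcgr3 promoter itself was marked in H replicates 1 and 2 only. Distances were taken to protein-coding genes alone, and a link of the region to Fcgr3 was not tested. The remaining regions at the head of the order had medians in H of 78.7 to 86.8. They lay 3042 bp from a TSS of Nedd9, 7851 bp from Blvra (biliverdin reductase), 14092 bp from Adap2 and 4398 bp from Nova2. Those of Lyzl4 and Plekhb2 lay farther away, at 47358 and 512541 bp. H3K4me1 was marked in 3 of 3 H and 0 of 3 C libraries at those of Dennd4c, Blvra, Adap2 and Nova2, and in 3 of 3 of both groups at those of Fcgr3, Nedd9 and Lyzl4.

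The central 300 bases of the strongest peak in the first gained region and in the second lost region are shown because they hold an AP-1 match and 3 C/EBP matches, in capitals with other motif matches (GRCm38.p6, plus strand).
Gained region near Dennd4c (chr4:86712699-86712998, plus strand): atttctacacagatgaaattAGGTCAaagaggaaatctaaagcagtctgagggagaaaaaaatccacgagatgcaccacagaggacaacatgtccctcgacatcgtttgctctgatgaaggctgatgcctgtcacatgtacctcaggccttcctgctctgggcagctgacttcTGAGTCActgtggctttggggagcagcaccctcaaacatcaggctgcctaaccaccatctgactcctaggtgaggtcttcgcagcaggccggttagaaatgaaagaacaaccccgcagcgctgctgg
Lost region near Usp24 (chr4:106214266-106214565, plus strand): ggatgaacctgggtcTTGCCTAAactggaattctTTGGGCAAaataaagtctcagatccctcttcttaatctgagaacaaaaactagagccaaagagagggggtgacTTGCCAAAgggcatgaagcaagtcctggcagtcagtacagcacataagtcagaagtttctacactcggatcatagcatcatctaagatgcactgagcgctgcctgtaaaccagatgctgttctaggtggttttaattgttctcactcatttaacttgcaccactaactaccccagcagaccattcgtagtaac
Motifs were searched on both strands as the letters TTGCNNAA (C/EBP), AGGTCA (nuclear receptor), CACGTG (E-box), TGANTCA (AP-1), TGACGTCA (CRE), CCGGAAG (ETS), GGGCGG (GC box), TTGGCA (NFI) and CCCNNGGGA (EBF), where N is any base, and matches could overlap. The AP-1 letters were present in 31.9% of the 72 gained regions, in 10.2% of the 2309 lost and in 14% of all regions. The NFI letters were present in 34.1% of lost, 20.8% of gained and 27% of all regions, and C/EBP letters in 25.6%, 19.4% and 22.1%. Among promoters, ETS letters were present in 14.8% of those lost and 21.2% of all marked. The median was 4 CpG per 300 bases in lost, 3 in gained and 3 in all regions.

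By nearest gene, 15 of 77 regions of de novo lipogenesis genes were lost (19.5%, beside 8.59% of all regions), 7 of 44 of thermogenic genes (15.9%), 12 of 91 of lipolysis genes (13.2%) and 7 of 53 of triglyceride synthesis genes (13.2%). Adipogenic transcription factors had 31 of 317 lost (9.8%) and adipocyte identity genes 7 of 98 (7.1%). Of the 23 lists, 16 had a share below that of all regions, among them insulin signalling (17 of 217), extracellular matrix (16 of 226), AP-1 (14 of 191), cytoskeleton (8 of 137), cytokines (4 of 97), fatty acid oxidation (2 of 54), hypoxia and glycolysis (2 of 118), lysosome (2 of 73), macrophage markers (1 of 47), endothelial markers (0 of 33) and interferon response (0 of 21). Chosen after their values were seen, Cd180, a receptor of leukocytes, had the most regions lost, 7 of 23, while Stk39 had 6 of its 10 regions lost, Esr1, the oestrogen receptor, 5 of 12, and Pik3r1, the regulatory subunit of PI3-kinase, 6 of 36.

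At the 2519 regions marked in 6 of 6 libraries, 13 were lower (0.516%) and 5 higher (0.198%) in level by limma. The region 14571 bp from Hk2 (chr6:82743847-82758792), hexokinase of glucose use in fat and muscle, was lowest in p (−2.92 ± 0.31 SE, limma adjusted p = 0.00348). Regions near Btg2 and Fos, which are immediate early genes, were higher (2.15 and 1.70, limma adjusted p = 0.0308 and 0.0386), and one 10404 bp from Cebpg was lower (−1.66, limma adjusted p = 0.0386). With median centring 49 were lower and 72 higher, so that higher calls rose from 27.8% to 59.5%, and with the highest coverage 1 was higher and none lower (204 lower at an unadjusted p under 0.05). The direction over regions thus depended on the scaling. Without C replicate 1, 2 or 3 no region was higher (163, 177 and 226 at an unadjusted p under 0.05) and 1, 0 and 0 were lower (146, 152 and 201), without H replicate 1 none was higher (270) and 4 lower, and without H replicate 3 206 were higher and 202 lower.

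The other marks were read at the same promoters. H3K4me3 was present at 87.7% to 91.5% of the 423 lost promoters in C and at 57.9% to 76.4% in H (difference −18.9 percentage points), beside −6.34 over all 10726. H3K27me3 was present at 3.78% to 7.57% of them in 3 C libraries and at 15.6% and 15.8% in 2 H libraries (difference 10.4, beside 3.06). H3K4me1 was present at 29.1% to 41.8% in C and 21.3% to 26.7% in H (difference −11.9, beside 5.37). At the 32 gained promoters H3K4me1 was present at 3.13% to 9.38% in C and at 25.0% to 40.6% in H, while H3K4me3 averaged 91.7% in both groups and H3K27me3 8.33% in C and 9.38% in H. In 4 of these 6 tests the groups did not overlap and p was 0.1, the lowest the exact permutation test allows (adjusted p = 0.15), and for H3K4me3 and H3K27me3 at gained promoters p was 1. The study describes the marks as assayed from one fat depot per animal, so these libraries are not independent of the H3K27ac libraries, and the labels do not tie single libraries to animals.

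H3K4me1 at non-promoter regions was present at 72.8% to 81.7% of lost regions in C and at 37.2% to 60.8% in H, and at 16.7% to 18.1% of gained regions in C and at 61.1% to 73.6% in H. Over all 26871 regions it was present at 45.2% to 49.3% in C and at 45.2% to 47.5% in H. These shares are given without a test.

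The sites called in H and C were then followed in the libraries of other mice, none of which had entered the calls. The share of gained sites marked in a diet group minus its control, less the same difference over lost sites, averaged 28.3 percentage points for promoters over the 3 pairs (exact permutation test within pairs, two-sided, p = 0.004, adjusted p = 0.005 over 3 tests). For non-promoter regions it was 45.3 (p = 0.001 by the same exact test, the smallest it can give, adjusted p = 0.003). No single pair passed the exact permutation test, in which p = 0.1 is the smallest a pair allows. At promoters the pairs gave 45.8 (HC), 13.3 (HH) and 25.9 (HHC), and at regions 50.2, 54.3 and 31.3, all above 0. This value joins both directions, which did not each recur in every pair. Lost promoters averaged 82.7% in HHC against 68.6% in CCC, and gained promoters 88.5% in HH against 89.1% in CC_l. All other mean shares differed in the direction of the calls. In CCC gained promoters were marked at 90.6% and, in replicate 3, at 12.5%.

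Lost promoters were marked at 25.3% to 58.6% in HC against 45.2% and 87.2% in CC_s, at 75.9% to 91.5% in HH against 98.3% in both CC_l libraries, and at 70.2% to 97.2% in HHC against 37.6% and 99.5% in CCC. Most lost promoters thus carried the mark in HH and HHC, and CCC replicate 3, with 14917 peaks against 32907 in CCC replicate 1, stood apart. Over all 21851 promoters, HC libraries marked 5514, 7204 and 10671 and CC_s libraries 6343 and 8824. HH marked 12048, 10856 and 9652 against 11706 and 10194 in CC_l, and HHC 11562, 11421 and 11711 against 11106 and 3865 in CCC. Lost regions were marked at 25.9% to 78.1% in HH against 96.1% and 96.4% in CC_l, without overlap, but at 29.9% to 90.1% in HHC against 57.9% and 98.4% in CCC and at 21.7% to 42.4% in HC against 49.5% and 79.8% in CC_s. Gained regions were marked at 40.3% to 98.6% in HH against 56.9% and 58.3% in CC_l, an overlap. Gained promoters were marked at 78.1% to 93.8% in HH but also at 81.3% and 96.9% in CC_l, an overlap. Of the first lost genes, Acaca was marked in 1 of 3 HH and 1 of 3 HHC libraries against 2 of 2 in CC_l and CCC, and Cyp2e1 in 2 of 3 HH and 2 of 3 HHC against 2 of 2 in each control, whereas Chst1 was marked in 3 of 3 of both diet groups.

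**Figure D5:**
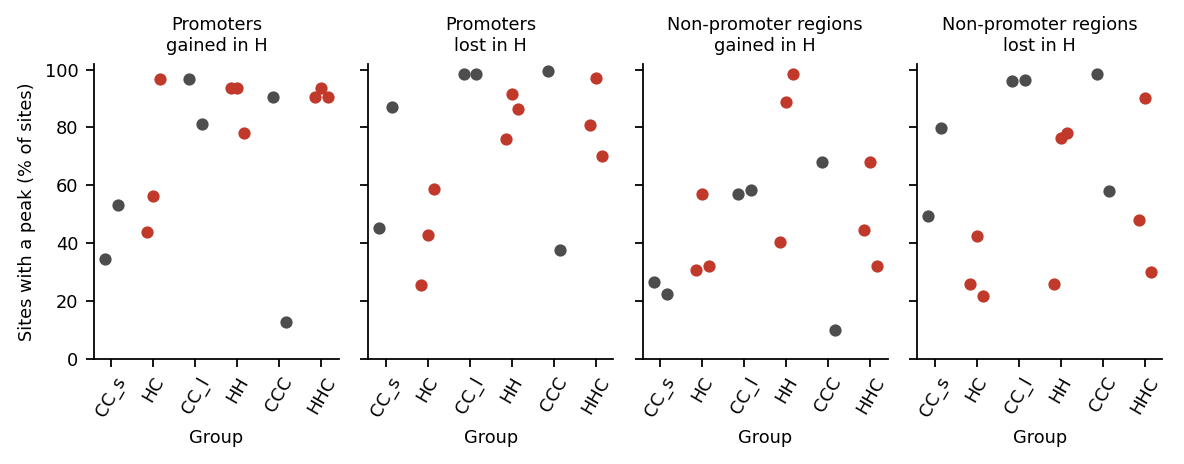
Share of the sites gained or lost in H that carry a peak in each H3K27ac library of the other groups (control groups grey, diet groups red), in percent of sites. Lost regions are marked at 96.1% and 96.4% in CC_l and 25.9% to 78.1% in HH, and gained promoters overlap between HH and CC_l.

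Levels were followed in the same libraries. For the promoters called higher minus those called lower, the median difference averaged 1.20 log2 units over the 3 pairs (exact permutation test, p = 0.005, adjusted p = 0.005), with 1.43 in HC, 1.24 in HH and 0.93 in HHC. Of the lower promoters measured, 44 of 47 lay below 0 in HC, 52 of 58 in HH and 42 of 51 in HHC, and of the higher ones 13 of 16, 16 of 18 and 5 of 8 lay above 0. Over all promoters measured about as many lay on each side in HH (1732 above and 1652 below 0). Of the 10 lower promoters with the smallest p-values, 9 lay below 0 in HH against CC_l, from −0.21 (Akap1) to −1.88 (Hoxc6), and E030018B13Rik stood at 0.43. Of the 10 higher ones all lay above 0, from 0.15 (Hspa8) to 1.47 (Junb). Among the list members called lower, Acacb stood at −3.06 and Fabp4 at −1.16, whereas Per2 and Tle3 stood at 0.23 and 0.30, and Lep and Cidec were not measured in HH. HC libraries had narrower peaks than CC_s, as H had against C, and HH libraries did not have narrower peaks than CC_l on average.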

How the data were processed

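Peak lists of 21 H3K27ac libraries, 6 of them from H and C, and of H3K4me3, H3K27me3 and H3K4me1 from H and C were read. As deposited, each list holds, per peak, the total signal and the highest coverage that the authors obtained with SEACR (stringent mode, threshold 0.01) in each library alone. The submitters' processing notes name Trim Galore 0.6.6, Bowtie2 2.4.4, SAMtools 1.13, bedtools 2.30 and SEACR 1.3. Signal was not scaled to depth, so read depth per library is unknown and no counting interval can be given. Some peaks lie on the mitochondrial genome. Promoters came from GENCODE on GRCm38. Python 3.11.15 with pandas 2.3.3 and numpy 2.4.6 made the calls, and scripts were tested on simulated data. Levels were tested with limma 3.58.1 (R 4.3.3) on quantile-normalized log2 total signal, with Benjamini-Hochberg adjustment over all sites tested and no block. Shares were compared by two-sided exact permutation tests over libraries. The members, gene lists and named genes were chosen with earlier results of these data known. Named promoters and regions were those called under both settings with the highest median percentile (12 and 8 per direction), the 10 smallest p-values per direction in the level test, list members called, and genes of known interest. Alternatives were equal peak numbers, stricter peaks, wider overlap, a looser rule, other scalings, a replicate block and leaving out each library. A promoter and a region that these rules select are not reported here.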

Additional observations from a re-analysis of the deposited data

How the results depend on the processing

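With equal peak numbers, promoters gained and lost went from 32 and 423 to 188 and 231, and regions from 72 and 2309 to 125 and 800. With the upper-signal part of each library's peaks, promoters gained came to 55, regions gained to 47 and lost to 1141. Asking for 2 more marked libraries in a group gave 395 and 1805 promoters and 1211 and 6708 regions. Leaving out 1 library in turn gave 36 to 316 promoters gained, 480 to 1183 lost, 81 to 954 regions gained and 2618 to 3505 lost. That loosens the call rule, so these counts could not fall. In the promoter level test, 18 higher and 62 lower became 40 and 163 with median centring, 3 and 11 with the highest coverage, and 149 lower with a peak in at least 4 of 6 libraries. Leaving out 1 library gave 0 to 66 higher and 8 to 164 lower. In the region level test, 5 higher and 13 lower became 72 and 49 with median centring, 1 and 0 with the highest coverage (230 and 204 by limma at an unadjusted p under 0.05), 40 and 93 with a peak in at least 4 of 6, and 0 to 206 and 0 to 202 without 1 library. The cause was not tested. H3K27me3 at gained promoters ranged from −2.08 to 4.17 percentage points without 1 library, and turned negative without H replicate 1. H3K4me3 there, with a difference of 0, ranged from −2.60 to 3.65.

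Replicate numbers did not pair the samples, since the deviations of equally numbered H and C libraries correlated at −0.04, −0.05 and −0.05. With the replicate number as a block the level test called 8 promoters higher and 51 lower, and 2 regions higher and 10 lower. The other results kept their direction under the alternatives run, and the tests in other mice stayed below 0.05. For the library measures and the other marks the exact permutation test cannot go below 0.1, so their side of the threshold could not change. With 3 libraries per group and unknown depth, a site without a peak cannot be called unacetylated.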
